A study of Mus musculus with 5 samples.

Results

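The genes described here are *Plat* and *Plau*, which encode the plasminogen activators of the tissue and urokinase type, *Plaur*, which encodes the urokinase receptor, and the serpin genes *Serpine2* and *Serpinf1*. They were chosen by name, and these 5 of 20365 gene names in the tables hold 7 of 40428 distinct 3′ UTR intervals. Each gene was represented by the interval with the highest mean CPM (reads scaled to a common library size) in the labeled libraries. Cardiac fibroblasts (CF) from hearts of adult healthy male C57Bl/6J wildtype mice were grown to confluency after collagenase perfusion. The cells of 3 libraries received 0.1 mM 4-thiouridine (S4U) for 12 h (labeled), and those of the other 2 were kept for 12 h without S4U (unlabeled). RNA of both groups was alkylated, and cells of both groups had grown in culture, so that neither group gives the levels of the intact heart. The study describes separate CF preparations as replicates, whereas the labels only number the libraries, so that p-values measure the spread between these libraries.

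Plasminogen is a circulating proenzyme that is cut to plasmin, a protease of fibrin and of matrix proteins. *Plat* and *Plau* products make this cut, the former mainly on fibrin and the latter mainly at the cell surface, where the *Plaur* product holds it. The *Serpine2* product, protease nexin-1, inhibits thrombin, both activators and plasmin, while the *Serpinf1* product, pigment epithelium-derived factor (PEDF), has the serpin fold but is not known to inhibit proteases. In fibroblasts the system is known for matrix turnover and for the release of growth factors from the matrix.

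SLAMseq reads transcript level and new synthesis from the same library. S4U is built into RNA made during the incubation, alkylated S4U is read as C in place of T, and the T>C conversion rate is the number of conversions divided by the number of covered T positions. A rate thus depends on how much of a transcript was made during labeling and on the conversions that occur without S4U, which the unlabeled libraries measure. The libraries were read from the 3′ end, so that the sequences below come from the 3′ ends of the transcripts on which both level and rate were counted.

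The interval sequences were read from GRCm39 and are given 5′ to 3′ on the strand of the transcript. They are shown because the intervals differ in 2 short features of 3′ UTRs, the AU-rich pentamer ATTTA, known from transcripts of short life, and the hexamer AATAAA, the signal for cleavage and polyadenylation. Capitals mark the motif. In the first line of *Plat* and of *Plau* this is the heptamer TATTTAT, which contains ATTTA. Not every match in the intervals of *Plat* and *Plau* is shown.
Plat, chr8:23272753-23272782, plus strand: taacactagtaTATTTATattttaatctat
Plau, chr14:20893385-20893414, plus strand: tctgctattttTATTTATatctatttttat
Plaur, chr7:24175102-24175131, plus strand: gttattgctctaATTTAttatataaatata
Plaur, chr7:24175172-24175201, plus strand: ccccactgtcacATTTAgcttgggaagatg
Serpine2, chr1:79772039-79772068, minus strand: tgtgttcactaaAATAAAgttggaaaacta
Serpinf1, chr11:75300858-75300887, minus strand: tgtagcctctgcAATAAAagagcttttcct
Plau, chr14:20893423-20893452, plus strand: gtaaaggtgatcAATAAAtgtgatttttct
Plat, chr8:23272820-23272849, plus strand: ctgtacttaaatAATAAAttcagaggtatt

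ATTTA occurred at 2 places in each of the intervals of *Plat*, *Plau* and *Plaur* and at 0 places in those of *Serpine2* and *Serpinf1*. Of the gene intervals with reads in every library whose length was within 20% of the member's, 63.5% held ATTTA at the length of *Plat*, 70.4% at that of *Plau*, 50.6% at that of *Plaur*, 60.7% at that of *Serpine2* and 18.1% at that of *Serpinf1*. At least 2 matches were held by 35.6%, 43.1% and 20.7% of the intervals at the lengths of *Plat*, *Plau* and *Plaur*. The heptamer TATTTAT, which contains ATTTA, stood once in *Plat* and once in *Plau*, against 19.5% and 22.1% of intervals of like length with at least 1. TGTANATA, the letters bound by Pumilio proteins, was found in 0 of the 5 intervals, and between 4.82% of intervals, at the length of *Serpinf1*, and 19.5%, at that of *Plau*, held it. The last AATAAA of the interval began 19 bases before the interval's end in *Serpine2*, 21 in *Serpinf1*, 22 in *Plau* and 31 in *Plat*, and *Plaur* had none. AATAAA was present in 77.9% of intervals of the length of *Plaur* and in 74.7% of those of the length of *Serpinf1*. Only the transcript strand was searched, and a match describes letters, not a site in use.

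The intervals lay in the 3′ UTR of the last exon of the gene's canonical transcript, except that the *Plau* interval ran 3 bases past its end and the *Plaur* interval 1 base past it. The *Plat* interval (ENSMUSG00000031538.8, chr8:23272123-23272862, plus strand, exon 14) had 740 bases. Its other interval was 2 bases longer and held the same reads. The *Plau* interval (ENSMUSG00000021822.5, chr14:20892519-20893456, plus strand, exon 11) had 938 bases, and 0 reads fell on the other *Plau* interval of 720 bases. The *Plaur* interval (ENSMUSG00000046223.12, chr7:24174897-24175393, plus strand, exon 7) had 497 bases. The *Serpine2* interval (ENSMUSG00000026249.12, chr1:79772038-79772721, minus strand, exon 9) had 684 bases and stopped 124 bases short of the annotated exon end. The *Serpinf1* interval (ENSMUSG00000000753.17, chr11:75300855-75300959, minus strand, exon 8) had only 105 bases with 26 T, and the annotated exon went on for 857 bases. Among 11187 gene intervals with reads in every library, 3.22% were shorter. The *Serpinf1* interval also lies within the span of *Smyd4* on the other strand, and that of *Plau* within the span of the lncRNA gene *Gm63115* on the other strand. Whether reads were counted by strand is not given in the sources used here.

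Depth differed between libraries. On 1 interval per gene, 1576048, 1194971 and 506045 reads were counted in labeled replicates 1 to 3, and 1842863 and 996053 in unlabeled replicates 1 and 2. The deposited CPM divides by a larger number, between 7.58 and 28.9 times the reads counted here, and this ratio was highest in labeled replicate 3. Levels are therefore given as CPM relative to counted reads unless the deposited CPM is named. The library-wide T>C rate was 0.0353, 0.0358 and 0.0356 in the labeled libraries and 0.00111 and 0.000652 in the unlabeled ones. Reads of all 8 fibroblast markers were present in every library, with a summed level of 38742 to 42382 CPM in labeled and 31375 to 34773 CPM in unlabeled libraries. Endothelial markers summed to 113 to 204 and 159 to 222 CPM, leukocyte markers to 57.7 to 88.7 and 65.7 to 92.4 CPM, and cardiomyocyte markers to at most 7.53 and 8.03 CPM, in labeled and unlabeled libraries respectively.

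*Plat*, the activator that works mainly on fibrin, was the most evenly labeled of the 5 genes relative to its mean. Its T>C rate was 0.0424, 0.0410 and 0.0396 in labeled replicates 1, 2 and 3, and 0.000196 and 0.000163 in the unlabeled libraries. All labeled libraries lay far above both unlabeled ones, with a mean of 0.0410 ± 0.00144 (SD, n = 3) against 2 conversions in 10180 and 1 in 6132 covered T positions. This difference passed the beta-binomial likelihood-ratio test (p = 6.75e-08). Of the reads on *Plat*, 64.1%, 62.4% and 64.9% carried at least 1 conversion in the labeled libraries, compared with 0.595% and 0.485% in the unlabeled ones. The Wilson 95% interval of the share was widest in labeled replicate 3, from 53.5% to 74.8%, where 74 reads were counted. A converted *Plat* read held 1.82, 1.92 and 1.92 conversions, above the median of 1.57 over the 2105 genes covered deeply, that is, at 1000 or more T positions in each library. *Plat* reads also covered more T positions each, between 27.5 and 31.4, than the median of 21.2 over these genes in the labeled libraries. Intervals here cover counting error only, and those of rates treat the T positions of a read as independent.

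The level of *Plat* was 157, 158 and 146 CPM in the labeled and 182 and 207 CPM in the unlabeled libraries. The deposited CPM gave 20.8, 13.4 and 5.06 against 23.2 and 18.8, and on this scale labeled replicate 1 lay between the unlabeled libraries. Relative to counted reads, every labeled library was below both unlabeled ones, a pattern that 13.1% of the 9807 genes tested showed. The means were 154 ± 6.67 (SD, n = 3) and 195 ± 17.3 CPM (SD, n = 2). By edgeR's quasi-likelihood test the log2 difference of reads, labeled minus unlabeled, was −0.26 (SE 0.23, adjusted p = 1.00), so that no change was shown. It was −0.40 without unlabeled replicate 1 and −0.12 without unlabeled replicate 2.

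*Plau*, the activator that acts on the receptor at the cell surface, was read rarely, and its rate was the least even. Its reads numbered 30, 17 and 8 in the labeled and 53 and 22 in the unlabeled libraries. The T>C rate was 0.0352 in labeled replicate 1, where 28 of 796 covered T positions were converted, with a Wilson 95% interval of 0.0244 to 0.0504. In labeled replicate 2 it was 0.0526 (22 of 418, interval 0.0350 to 0.0784), and in labeled replicate 3 it was 0.0142 (3 of 211, interval 0.00485 to 0.0410). The spread between labeled libraries was thus wide, with a mean of 0.0340 ± 0.0192 (SD, n = 3), and the interval of replicate 3 reached into that of replicate 1. The unlabeled libraries had 1 conversion in 1720 T positions (0.000581) and 0 in 764, which allows a rate of up to 0.00393. The labeled rate was higher by the beta-binomial test (p = 0.000799). Without labeled replicate 3 the mean *Plau* rate was 0.0439, and without labeled replicate 2 it was 0.0247.

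Reads with a conversion made up 53.3%, 64.7% and 25.0% of *Plau* reads in the labeled libraries and 1.89% and 0% in the unlabeled ones. The level was 19.0, 14.2 and 15.8 CPM in the labeled and 28.8 and 22.1 CPM in the unlabeled libraries, again with every labeled library below both unlabeled ones. The deposited CPM gave 2.51, 1.21 and 0.547 against 3.66 and 2.005, and on this scale labeled replicate 1 lay between the unlabeled libraries. The log2 difference of reads was −0.56 (SE 0.35, adjusted p = 0.984 by edgeR), so that this order of the libraries was not matched by a call across all genes.

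*Plaur*, the receptor that holds the urokinase-type activator, had the highest mean T>C rate of the 5 genes. Its rate was 0.0705 (50 of 709 covered T positions), 0.0372 (19 of 511) and 0.0594 (13 of 219) in labeled replicates 1 to 3. The Wilson 95% intervals ran from 0.0539 to 0.0918, from 0.0239 to 0.0573 and from 0.0350 to 0.0989. Those of labeled replicates 1 and 2 barely overlapped. Their intervals of the share of converted reads, 74.2% to 97.7% in replicate 1 and 47.3% to 83.6% in replicate 2, overlapped more widely. In each unlabeled library there was 1 conversion, in 467 and in 210 T positions (0.00214 and 0.00476). The mean labeled rate of *Plaur* was 0.0557 ± 0.0170 (SD, n = 3). It was higher than in the unlabeled libraries by the beta-binomial test (p = 0.000793). Reads with a conversion were 22 of 24, 15 of 22 and 7 of 9, or 91.7%, 68.2% and 77.8%, against 1 of 17 and 1 of 9. This mean rate exceeded that of 99.9% of the 2105 deeply covered genes, but *Plaur* itself rests on fewer T positions than any of them.

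The level of *Plaur* was 15.2, 18.4 and 17.8 CPM in the labeled and 9.22 and 9.04 CPM in the unlabeled libraries. Every labeled library was above both unlabeled ones, opposite to the activator genes and as in 8.2% of the genes tested. On the deposited CPM, at 2.01, 1.56 and 0.616 against 1.17 and 0.820, the *Plaur* groups overlapped and labeled replicate 3 was the lowest library. The log2 difference was 0.97 (SE 0.41). Its unadjusted p of 0.0481 by edgeR became 0.836 after adjustment over all genes, and 2.84% of genes were higher at an unadjusted p below 0.05. Summed markers of pericytes and smooth muscle (9.21 to 15.8 against 3.01 to 8.14 CPM) and of epicardial cells (3.81 to 5.93 against 0.543 to 1.00 CPM) were also higher in every labeled library. So were the summed fibroblast markers (38742 to 42382 against 31375 to 34773 CPM). By mean, *Col1a1* (13035.5 against 9222 CPM) and *Col1a2* (11048 against 8183 CPM) were higher in the labeled libraries. *Col3a1*, *Tcf21* and *Postn* were higher by less. *Dcn* (4916 against 4918 CPM) and *Lum* (711 against 713 CPM) were level, and *Pdgfra* (521 against 782 CPM) was lower. *Wt1* (14 labeled and 2 unlabeled reads) made up nearly all of the epicardial sum, and *Cspg4* had 14 and 3 reads and *Des* 8 and 2. *Myh11* was at 0 in the labeled libraries and *Msln* and *Krt19* were at 0 in every library. The study's isolation of CF includes a collagenase wash to take off epicardial cells. The part of these markers in the *Plaur* difference was not tested.

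*Serpine2*, the inhibitor in this set, combined a high level with a low T>C rate. The rate was 0.0172, 0.0181 and 0.0152 in the labeled and 0.00296 and 0.00180 in the unlabeled libraries. All labeled libraries were above both unlabeled ones, and the means were 0.0168 ± 0.00146 (SD, n = 3) and 0.00238 ± 0.000820 (SD, n = 2). The difference passed the beta-binomial test (p = 5.78e-06). Only 5.56% of the deeply covered genes had a lower mean rate in the labeled libraries, whereas 93.7% had a lower rate in the unlabeled ones. Of *Serpine2* reads, 22.0%, 23.8% and 18.3% were converted in the labeled libraries and 5.60% and 4.14% in the unlabeled ones. The median over deeply covered genes was 52.7% and 1.15%. The unlabeled rate of *Serpine2* amounted to 14.1% of its labeled rate, and subtracting it left 0.0145 ± 0.00146 (SD, n = 3).

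Reads of *Serpine2* numbered 956, 959 and 623 in the labeled and 857 and 652 in the unlabeled libraries. As CPM relative to counted reads, *Serpine2* stood at 607, 803 and 1231 in the labeled and 465 and 655 CPM in the unlabeled libraries. Labeled replicate 3, the library with the fewest reads, was highest, and the groups overlapped because labeled replicate 1 lay below unlabeled replicate 2. On the deposited CPM the order differed, at 80.0, 68.0 and 42.6 against 59.1 and 59.4, with labeled replicate 3 lowest. The log2 difference of reads was 0.73 (SE 0.39, adjusted p = 0.936 by edgeR), and it was 0.40 without labeled replicate 3, 0.46 without unlabeled replicate 1 and 1.05 without unlabeled replicate 2. No change in level was shown.

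*Serpinf1* had the lowest T>C rate of the set and the highest mean rate without S4U. Its rate was 0.0121, 0.0116 and 0.0108 in the labeled and 0.00702 and 0.00384 in the unlabeled libraries. The groups did not overlap, but unlabeled replicate 1 lay nearer to the labeled libraries than to 0. The labeled mean of 0.0115 ± 0.000620 (SD, n = 3) was 2.12 times the unlabeled mean of 0.00543 ± 0.00225 (SD, n = 2), whereas the *Serpine2* ratio was 7.08. The labeled rate was higher by the beta-binomial test (p = 0.00209). It did not pass in limma on log odds with a block for the replicate number (adjusted p = 0.138). After subtraction of the unlabeled mean, 0.00607 ± 0.000620 remained. The unlabeled rate of *Serpinf1* exceeded that of 99.4% of the deeply covered genes, and its labeled rate exceeded that of 2.66% of them.

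Reads with a conversion made up 12.8%, 14.2% and 12.2% of *Serpinf1* reads in the labeled libraries and 8.97% and 5.26% in the unlabeled ones. In unlabeled replicate 1 there were 117 conversions in 117 converted reads, and in unlabeled replicate 2 there were 36 in 37. In the labeled libraries a converted *Serpinf1* read held 1.21, 1.08 and 1.17 conversions, fewer than the 1.82 to 1.92 of *Plat*. *Serpinf1* reads covered 12.8 to 13.3 T positions each within the 105-base interval, fewer than for any other member. Whether the T positions that converted without S4U were the same in all reads was not tested, since the tables sum over an interval.

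The level of *Serpinf1* was 702, 932 and 842 CPM in the labeled and 708 and 707 CPM in the unlabeled libraries. Labeled replicate 1 was the lowest of the 5 libraries and labeled replicate 2 the highest, so the groups overlapped. They also overlapped on the deposited CPM, at 92.7, 79.0 and 29.1 against 90.0 and 64.1. The log2 difference of reads was 0.30 (SE 0.25, adjusted p = 1.00 by edgeR).

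**Figure D1:**
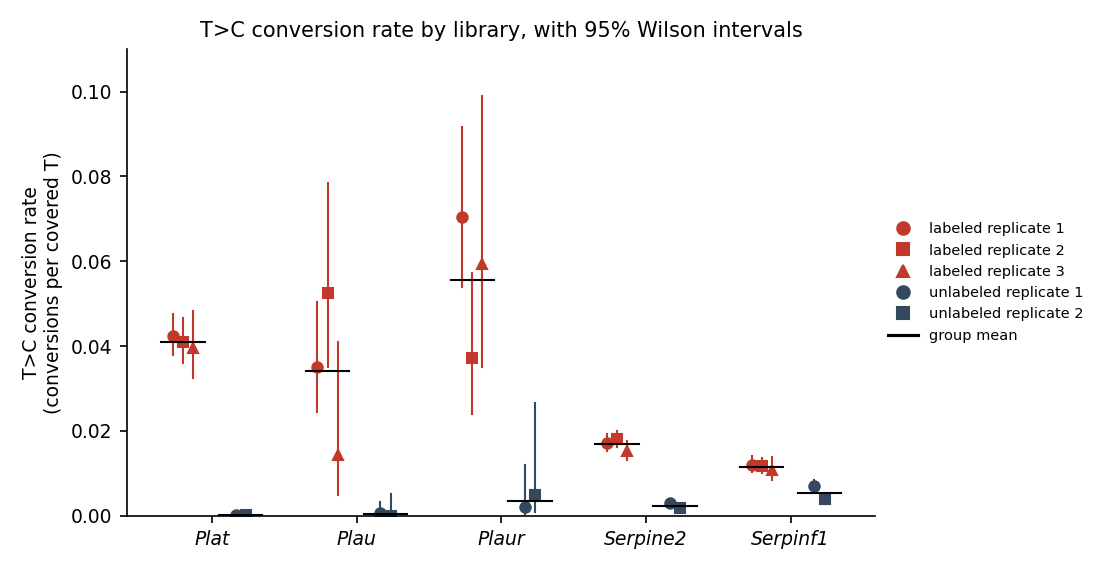
T>C conversion rate (conversions per covered T position) of each gene in each library, with 95% Wilson intervals as vertical bars and group means as horizontal lines. The 3 labeled libraries lie close together for *Plat*, *Serpine2* and *Serpinf1*, spread widely for *Plau* (0.0142 to 0.0526) and *Plaur* (0.0372 to 0.0705), and the mean unlabeled rate is highest for *Serpinf1*.

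Across the set, 5 of 5 genes had a higher T>C rate in the labeled libraries at p below 0.05 by the beta-binomial test. Since 94.6% of the 19240 intervals tested were higher in this way, and 0 were lower, this count is near the background. The share of reads with a conversion separated the labeled from the unlabeled libraries for 5 of 5 genes, as it did for 90.6% of the 11189 genes with reads in every library. With 3 libraries against 2, the exact permutation test gave p = 0.1 (one-sided) for each gene, the smallest value it can reach.

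By mean rate *Plat*, *Plau* and *Plaur* stood above *Serpine2* and *Serpinf1*, though not for every pair in every library. In each of the 3 labeled libraries *Serpine2* and *Serpinf1* had lower rates than *Plat* and *Plaur*, and *Serpinf1* was also lower than *Plau* and than *Serpine2*. These were 6 of the 10 pairs. The *Plat* rate exceeded that of *Serpine2* by 0.0242 ± 0.00114 (SD of the difference within libraries) and that of *Serpinf1* by 0.0295 ± 0.000830. *Serpine2* exceeded *Serpinf1* by 0.00533 ± 0.00103. *Plaur* was highest, then *Plat*, then *Plau* in labeled replicates 1 and 3, and the reverse held in replicate 2. *Serpine2* lay above *Plau* in labeled replicate 3 by the rate, but below it after subtraction of the unlabeled mean (0.0128 against 0.0139) and by the share of converted reads (18.3% against 25.0%). For each of the 6 pairs the exact permutation test by sign flips gave p = 0.25 (two-sided), the smallest that 3 libraries allow, and 0.417 after Benjamini-Hochberg adjustment over 10 pairs. The 3 genes whose intervals held ATTTA were those with the higher mean rates, and this order among 5 genes is given as a description. Only the intervals were searched, and the annotated exon went on for 857 bases in *Serpinf1* and 124 in *Serpine2*. Absence of ATTTA from these intervals is thus not absence from the 3′ UTR.

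**Figure D2:**
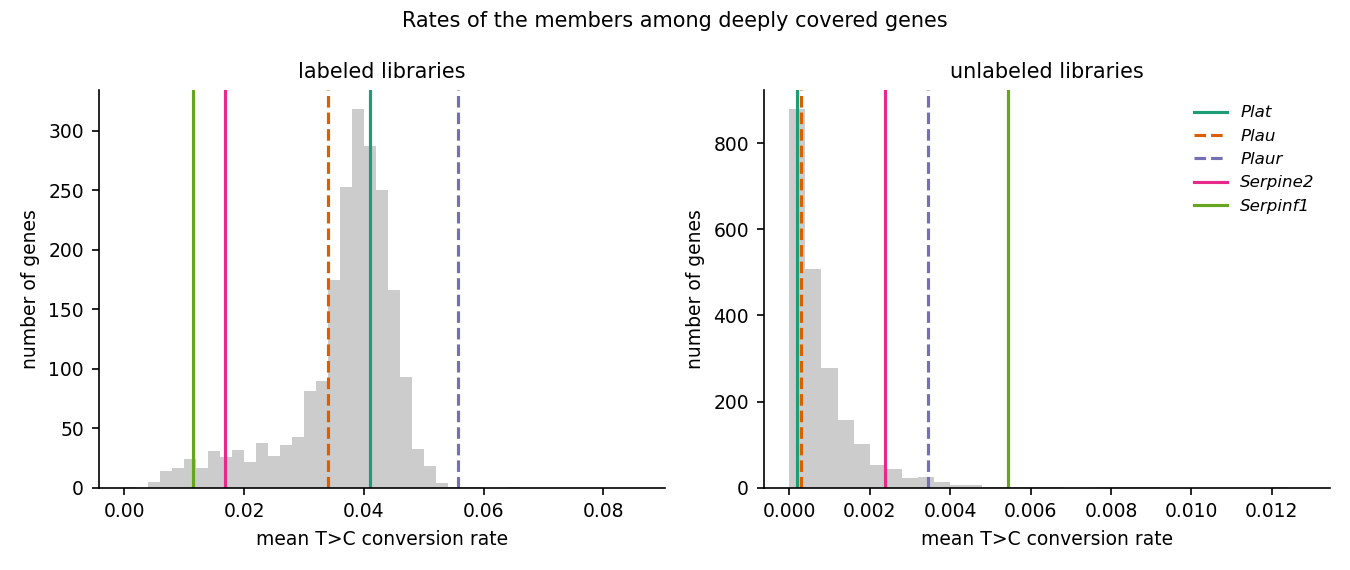
Number of genes by mean T>C rate among the 2105 deeply covered genes (1000 or more T positions per library), in labeled (left) and unlabeled (right) libraries, with vertical lines at the 5 genes and dashed lines for *Plau* and *Plaur*, which are covered less deeply. *Plat* (0.0410) stands near the bulk of genes with a median of 0.0388, *Serpine2* and *Serpinf1* stand in the lower tail of the left panel, and *Serpinf1* is farthest to the right without S4U.

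Levels of different genes were compared per kilobase of interval and without division by length. In the labeled libraries *Serpinf1* had 7862 ± 1103 CPM per kilobase (SD, n = 3), *Serpine2* 1287 ± 467, *Plat* 208 ± 9.01, *Plaur* 34.5 ± 3.39 and *Plau* 17.4 ± 2.61. The ranges of neighbours in this order did not overlap, from 6689 to 8878 CPM per kilobase for *Serpinf1* down to 15.2 to 20.3 for *Plau*. Reads came from the 3′ end, so that their number need not grow with interval length, and the division raises *Serpinf1*, whose interval is short. The order per kilobase therefore rests on interval lengths as well as on reads. Without division by length, *Serpine2* (880.1 ± 319 CPM) and *Serpinf1* (825 ± 116 CPM) were not separated, nor were *Plaur* (17.1 ± 1.69 CPM) and *Plau* (16.4 ± 2.45 CPM), while the other 8 of 10 pairs kept 1 order in every labeled library. By CPM relative to counted reads, the 2 serpin genes exceeded 99.0% and 98.8% of the 11189 genes with reads in every library, *Plat* 88.3%, *Plaur* 32.5% and *Plau* 31.2%.

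**Figure D3:**
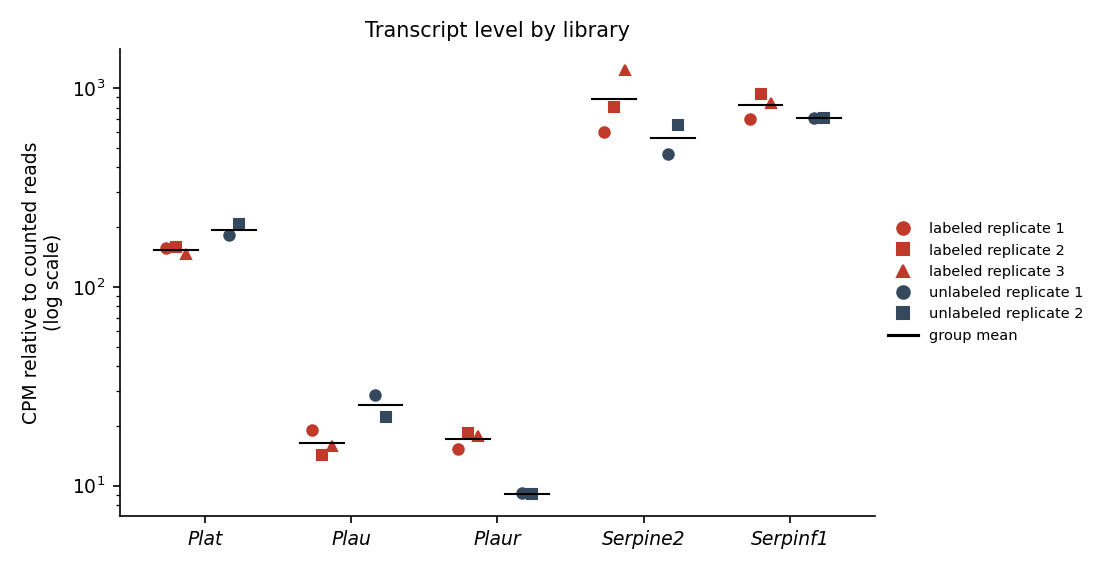
Level of each gene in each library as CPM relative to counted reads, on a log axis, with group means as horizontal lines. Labeled libraries lie below both unlabeled ones for *Plat* and *Plau* and above both for *Plaur* on this scale, and the groups overlap for *Serpine2* (465 to 1231 CPM) and *Serpinf1* (702 to 932 CPM).

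At an adjusted p below 0.05, edgeR's test called 0 of the 5 genes and 0 of all 9807 genes tested. At an unadjusted p below 0.05 it called 1 of the 5, *Plaur*, and 279 genes higher and 306 lower (3.12%) among all. With a block for the replicate number, edgeR called 1145 genes (11.7%) at an adjusted p below 0.05. The lowest adjusted p of the 5 genes in that fit was 0.0708 (*Serpine2*). DESeq2 called 14 genes in all, with adjusted p = 1.00 for every one of the 5 genes.

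Other genes of the plasminogen system were read from 5 lists. Plasminogen, its binders and the receptors that clear it or its activators were 16 genes, of which 12 of 14 tested had a higher rate with S4U, against 95.1% of all genes tested, and 0 of 13 tested for reads passed at an adjusted p below 0.05. Their median log2 difference of reads was 0.13, against 0.02 over all genes. Among the 8 covered deeply, the rate was lowest for *Mrc2* (0.0176 ± 0.00317), the collagen uptake receptor that associates with the *Plaur* product, and highest for *Itgb5* (0.0348 ± 0.000630), an integrin subunit of a vitronectin receptor. *Itgb1*, the common integrin beta subunit, had the highest mean level of the list in the labeled libraries, at 696 CPM. *Lrp1*, named after its values were seen, was close to it there (685 CPM). In the unlabeled libraries *Lrp1* was above *Itgb1* (761 against 491 CPM). The 2 genes that did not pass the rate test were *Plg* and *Eno1*, which were named after their values were seen. *Eno1* had 2 to 12 reads per library and has a near-identical copy in the mouse genome, so that its count is uncertain. *Plg*, the gene of plasminogen itself, had 4, 1 and 2 reads in the labeled and 6 and 6 in the unlabeled libraries, with 0 conversions in 155 covered T positions with S4U, which allows a rate of up to 0.0194.

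Other inhibitors of plasmin, its activators or thrombin were 13 genes. Of these, 7 of 8 had a higher rate (95.1% of all genes), 0 of 6 passed for reads and the median log2 difference was 0.21 (0.02 over all genes). *Serping1*, the gene of C1 inhibitor, had the highest level of the list (982 CPM) and the lowest rate of its 3 deeply covered genes (0.00934 ± 0.000740). *Serpinb6a*, an intracellular serpin, had the highest rate of these 3 (0.0383 ± 0.00417), between the rates of *Plau* and *Plat*. Of 10 other serpin genes, 5 of 5 tested had a higher rate (95.1% of all genes) and 0 of 5 passed for reads, with a median log2 difference of −0.12. *Serpinh1*, the collagen chaperone HSP47, stood at 2950.0 CPM with a rate of 0.0218 ± 0.00170, and *Serpina3n*, a secreted serpin of the acute phase, had a rate of 0.0239 ± 0.00283. *Serpina3n* and *Serpinb6a* belong to clusters of close copies, which makes their counts less certain.

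Precursors and matrix proteins that plasmin or its activators cut were 16 genes, of which 10 of 13 had a higher rate (95.1% of all genes) and 0 of 12 passed for reads, with a median log2 difference of −0.33 (0.02 over all genes). *Fn1*, fibronectin, had the highest level (4619.9 CPM) and the lowest rate among the deeply covered ones (0.0154 ± 0.00152), close to that of *Serpine2*. *Mmp14*, the membrane-bound collagenase, had the highest (0.0352 ± 0.00164). Of 12 genes of coagulation initiation and thrombin signalling, 4 of 5 had a higher rate (95.1% of all genes) and 0 of 5 passed for reads, with a median log2 difference of −0.03. The exception for the rate, named after its values were seen, was *Klkb1*, the gene of plasma prekallikrein, with 1 conversion in 74 covered T positions of the labeled libraries. *F3*, tissue factor, had the highest rate of all deeply covered genes in these lists (0.0503 ± 0.00185), above *Plat* and near *Plaur*. *F2r*, the thrombin receptor, had the highest mean level of its list in the labeled libraries (595 CPM) and a rate of 0.0411 ± 0.00424. In the unlabeled libraries the mean level of *F3* was higher than that of *F2r* (389 against 378 CPM).

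At an unadjusted p below 0.05 by edgeR, 3 of the 41 list genes tested for reads were higher, against 2.84% of all genes, and 5 were lower, against 3.12%. These 8 genes were named after their values were seen. The higher ones were *Ltbp1* (log2 difference 0.82, SE 0.30), which tethers latent TGF-β to the matrix, *Serpini1* (0.73, SE 0.27) and *Serpinh1* (0.66, SE 0.25). The lower ones were *Hgf* (−0.999, SE 0.31) and *Pdgfd* (−0.97, SE 0.33), growth factors activated by cleavage, *Thbd* (−1.02, SE 0.34), the thrombin-binding thrombomodulin, *Serpina3g* (−1.63, SE 0.55) and *Serpinb8* (−1.24, SE 0.52). Their adjusted p lay between 0.724 and 0.832 by edgeR.

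**Figure D4:**
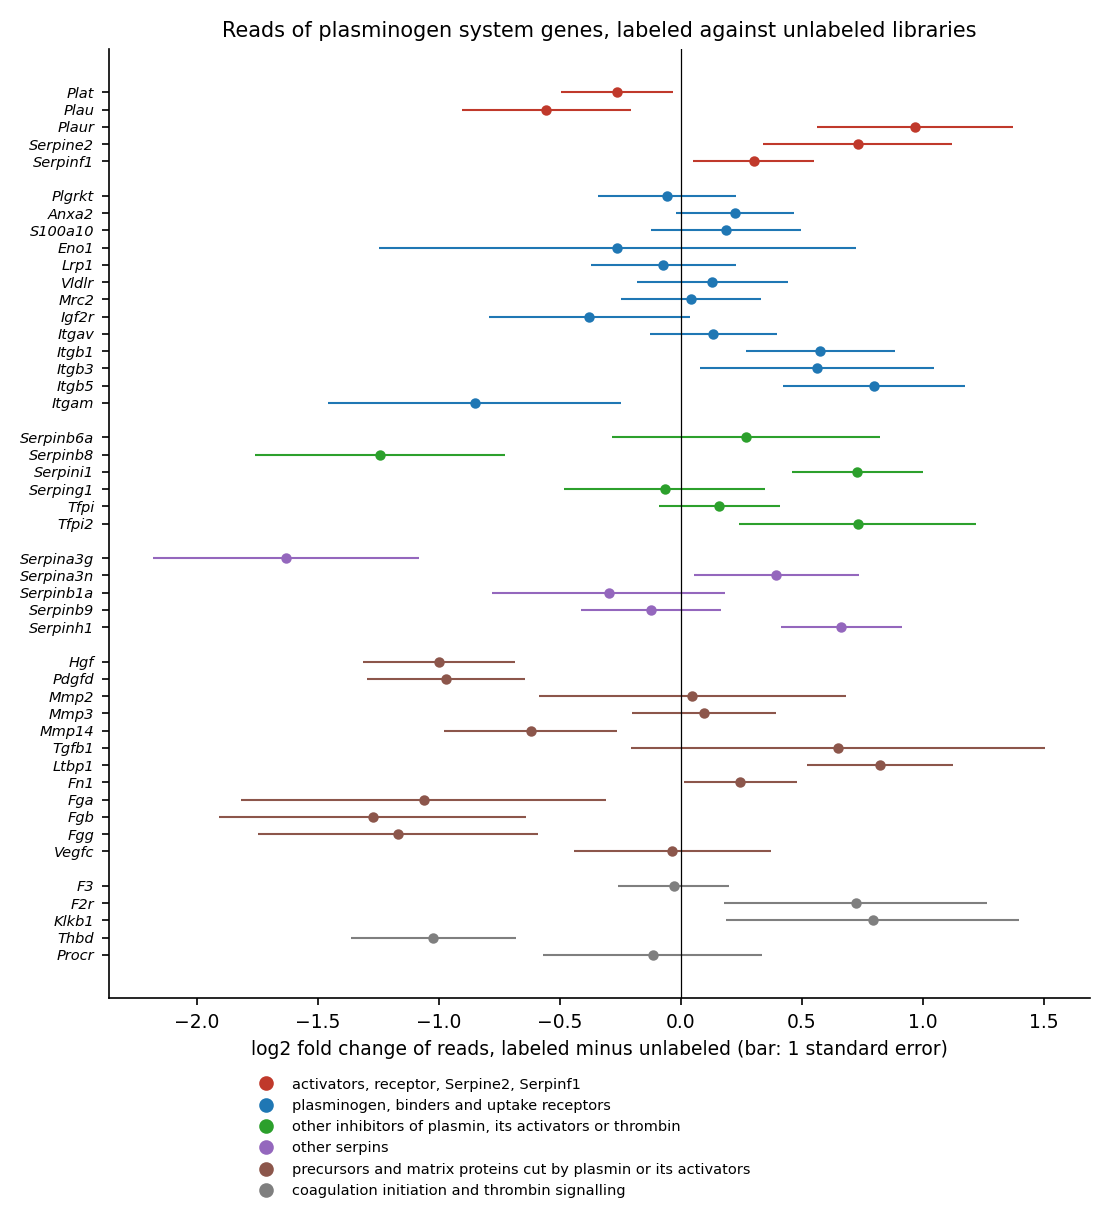
Log2 difference of reads, labeled minus unlabeled, with 1 standard error to each side, for the 5 genes and for the members of the 5 lists that were tested for reads, as fitted by edgeR. No gene passed at an adjusted p below 0.05, and the 5 genes at the top run from −0.56 (*Plau*) to 0.97 (*Plaur*).

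The genes most like the members were found by the root-mean-square difference over libraries. By T>C rate in the 3 labeled libraries, among 2105 deeply covered genes, *Plat* was nearest to *Eif1ax* (0.0412), *Exoc4* (0.0411) and *Map4* (0.0412). *Serpine2* was nearest to *Pon3* (0.0170), *Colgalt1* (0.0173) and *Tmem176b* (0.0168). *Serpinf1* was nearest to *Dcn* (0.0112), *Gpnmb* (0.0121) and *Ppib* (0.0115). The unlabeled rates of these neighbours differed from that of *Serpinf1* (0.00543), being 0.000744 in *Dcn*, 0.00768 in *Gpnmb* and 0.00204 in *Ppib*. By level pattern over all 5 libraries, as log2 CPM centred on the gene's mean among 4846 genes with a mean of at least 50 reads, *Plat* was nearest to *Dazap2* (difference 0.05) and *Pappa* (0.05), *Serpine2* to *Pfn2* (0.08) and *Col16a1* (0.13), and *Serpinf1* to *Ndufb9* (0.05) and *Ncbp2* (0.06). *Plau* and *Plaur* had too few reads for this search.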

How the data were processed

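The members and the gene lists were chosen with earlier results of these data known. The authors used UMI-tools for UMI extraction and for removal of duplicates, and SLAM-DUNK 0.4.3 for mapping (mm39) and for counting on 3′ UTR intervals. The submitters' processing notes also name bcl2fastq, FastQC and MultiQC. The authors deposited raw counts of reads, of converted reads, of covered T positions and of conversions for each interval and library. The conversion rate was deposited as a fraction of the T positions covered, and the CPM, as deposited, scales the reads of an interval by 1 number per library.

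Each interval entered once. GRCm39 gave the deposited number of T for 40380 of 40380 intervals on its chromosomes, and coordinates are counted from 1. Rates were tested by a beta-binomial likelihood ratio (1 overdispersion per interval, chi-square, two-sided, unadjusted p, at least 1 covered T in every library). The test, its threshold of 0.05 and the removal of intervals without a covered T follow the study's methods, and the other settings were chosen here. Reads, on 1 interval for each gene, were tested with edgeR 4.0.16 (quasi-likelihood, TMM, filterByExpr, Benjamini-Hochberg over 9807 genes). The alternatives were DESeq2 1.42.0, limma 3.58.1 on log odds with a pseudocount of 0.5, other normalizations, filters and coverage minimums, sums over a gene's intervals, a block for the replicate number, and each library left out. Scripts ran in R 4.3.3 and Python 3.11.15, the latter with matplotlib 3.10.9, numba 0.67.0, pandas 2.3.3, scipy 1.17.1 and numpy 2.4.6.

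Reads on 1 interval per gene, 506045 to 1842863 per library, set the precision. A limit at 0 conversions is 3 conversions of the covered T positions. Tested on simulated data, the beta-binomial test called 94% of 200 changed intervals among 3000 and 3.32% of unchanged ones. Changed intervals had a rate of 0.0390 with and 0.000499 without S4U, at an overdispersion of 1e-05. Smaller changes and a wider spread between libraries were not simulated for this test. The limma fit recovered 178 of 200 with 2 false calls. Of 200 genes given a log2 change of 2 among 9522, edgeR recovered 93 with 5 false calls. With the replicate block it recovered 72 with 10 false calls. DESeq2 recovered 119 of 200 among 9807 with 21 false calls.

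Named from each list were the deeply covered genes (1000 or more T positions in each library) that had the highest and the lowest rate. Also named were the gene with the highest mean level in the labeled libraries and any gene past the read test. Names outside this rule are marked where they appear. Results for some genes of the system are not reported here.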

Additional observations from a re-analysis of the deposited data

How the results depend on the processing

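*Serpine2*, *Plat* and *Serpinf1* kept a higher rate with S4U, past the threshold, under each beta-binomial alternative, as did *Plau* and *Plaur* except with at least 1000 covered T positions, where they could not be tested. In limma with the replicate block, *Serpinf1* had a log odds difference of 0.82 and adjusted p = 0.138. The number of intervals with a higher rate was 18200. It was 3154 with at least 1000 covered T positions, 10634 with 1 interval per gene and 10707 with sums per gene, since fewer were tested, and 17056 to 18632 with 1 library left out. The limma fit called 18271, and 18448 with the replicate block.

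No gene changed in reads by edgeR's test at an adjusted p below 0.05, nor with any library left out (0 to 0), while unadjusted values below 0.05 were found for 279 genes in the higher and 306 in the lower direction. DESeq2 called 14. With the replicate block edgeR called 1145, and *Serpine2* had a log2 difference of 0.39 (adjusted p = 0.0708), the lowest adjusted p of the 5 genes. Numbers 1 and 2 correlated at 0.784 and 0.638 in their deviations. The study incubated control cells without S4U in parallel, but the labels do not say that a number marks a shared preparation. The 2 pairs are therefore not known to be paired by design, and the cause of the correlations was not tested.

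The share of converted reads separated the groups for 5 genes without any 1 library (5 to 5). The pairs in 1 order of rates were 6, 6 to 9 without 1 library, 7 after subtraction of the unlabeled mean and 9 by the share of converted reads. The highest over the lowest mean deposited CPM was 48.0, 46.7 to 63.1 without 1 library, and 450.8 for CPM relative to counted reads per kilobase, which divides by a short interval in *Serpinf1*. For single genes, 112 of 113 other values kept their direction and side of the threshold. *Plau* and *Plaur*, with 8 to 53 reads, are limited by depth.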

Other observations

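The list genes that did not pass the test of the rate, besides *Plg*, *Eno1* and *Klkb1*, were the fibrinogen chain genes and *Serpinc1*, and they were named after their values were seen. *Fgb*, whose product is part of fibrin, the substrate of plasmin, had 52, 10 and 7 reads in the labeled and 52 and 69 in the unlabeled libraries. Its labeled libraries held 0 conversions in 1894 covered T positions, which allows a rate of up to 0.00158. *Fgg* had 0 conversions in 1357 positions (up to 0.00221) and *Fga* 1 in 1013. *Serpinc1*, the gene of antithrombin, had 0 in 330 (up to 0.00909). These limits cover counting error only.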
